A study of Mus musculus with 6 samples.

Results

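The variable (V) segments of the T cell receptor alpha and beta genes were followed in sorted regulatory T cells (Tregs) of mice with intact or floxed Junb in that lineage. Members were all genes whose GENCODE M21 symbol starts with Trav (alpha chain) or Trbv (beta chain) and that had at least 10 counts summed over the 6 libraries. This gave 146 of 163 annotated V segments, 121 of 128 Trav and 25 of 35 Trbv, among 53379 genes in the deposited tables. All 163 identifiers were matched to the annotation. The Trav segments lie between positions 52427928 and 53977678 of chromosome 14 and the Trbv segments between positions 40891229 and 41558452 of chromosome 6 (GRCm38, also named mm10). All 108 Trav and all 22 Trbv segments annotated as functional type were members, and so were 13 of 20 Trav and 3 of 13 Trbv pseudogenes. The 17 segments under the limit were all pseudogenes. Just inside it lay Trav5-2 with 10 counts, Trav20 with 12 and Trav18 with 13, and just outside it Trav15d-3, Trbv18 and Trbv25 with 3 counts each.

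Tregs are CD4 T cells that express FOXP3 and restrain immune responses, and JunB is a subunit of the transcription factor AP-1. The control group (WT, 3 libraries) had the genotype Foxp3YFP-CrexJunb+/+ and the other group (KO, 3 libraries) carried the same Foxp3YFP-Cre allele with floxed Junb, all on C57BL/6 and aged 3 months. Both groups therefore carry Cre under Foxp3, a design meant to act in Tregs and to leave Junb intact in other T cells. Junb in other T cells was not measured here. The labels do not tie libraries to animals, so the tests below measure the spread between libraries, which may be technical.

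T cells build their receptor genes by V(D)J recombination. In each developing cell the RAG1 and RAG2 recombinase joins 1 V segment to a joining (J) segment at the alpha locus, and to a diversity (D) and a J segment at the beta locus, and the rearranged V segment is then transcribed with the constant region gene. The share of each V segment in the receptor RNA of a cell population is called V usage, and it reflects how often each segment rearranges, which receptors pass selection in the thymus, and which T cells have expanded. In C57BL/6 mice the central stretch of the Trav locus exists in further copies, whose segments carry the letter d or n in their symbols. Segments whose symbols contain -dv can also be used by the delta chain of gamma delta T cells.

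Most Trbv segments can be told apart by a short read, and many Trav copies cannot, which sets how far each value below can be read. The 3′ ends of the V segments that the results turn on show this. Each line is the last 60 bases of the GENCODE M21 transcript, 5′ to 3′, on the sense strand, and the capitals mark the codon of the conserved cysteine after which the junction with the next segment begins. On the plus strand of GRCm38, Trbv4 lies at chr6:41059394-41059886, Trbv13-2 at chr6:41121396-41121832, Trbv15 at chr6:41141188-41141658 and Trbv30 at chr6:41281376-41281990. The Trbv lines hold the most used segments, those that varied most between libraries and the 3 whose shares separated the genotypes.
Trbv13-2: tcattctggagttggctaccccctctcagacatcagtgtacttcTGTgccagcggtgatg
Trbv13-3: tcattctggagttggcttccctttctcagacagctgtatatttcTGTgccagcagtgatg
Trbv3: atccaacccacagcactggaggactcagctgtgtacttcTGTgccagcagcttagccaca
Trbv5: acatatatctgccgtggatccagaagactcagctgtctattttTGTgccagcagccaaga
Trbv16: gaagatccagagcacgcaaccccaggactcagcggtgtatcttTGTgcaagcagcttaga
Trbv26: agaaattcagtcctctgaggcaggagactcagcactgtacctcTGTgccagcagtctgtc
Trbv29: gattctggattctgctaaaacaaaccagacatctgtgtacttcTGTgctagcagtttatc
Trbv4: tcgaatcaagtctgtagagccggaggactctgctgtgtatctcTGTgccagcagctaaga
Trbv15: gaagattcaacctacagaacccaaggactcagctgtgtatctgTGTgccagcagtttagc
Trbv30: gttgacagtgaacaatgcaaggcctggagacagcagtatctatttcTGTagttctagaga
The Trav lines pair copies with each other. Trav14d-1 and Trav14n-1 (chr14:52855614-52856166 and chr14:53166626-53167178) are identical over their whole transcripts. In these 60 bases Trav8-1 and Trav8d-1 differ at 0 positions and Trav12-1 and Trav12d-1 at 1 position.
Trav14d-1: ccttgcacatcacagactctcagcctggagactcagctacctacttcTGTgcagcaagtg
Trav14n-1: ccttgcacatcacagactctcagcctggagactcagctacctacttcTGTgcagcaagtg
Trav14-2: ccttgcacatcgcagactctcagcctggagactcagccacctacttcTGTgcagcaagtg
Trav8-1: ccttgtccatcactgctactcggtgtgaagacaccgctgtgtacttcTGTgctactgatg
Trav8d-1: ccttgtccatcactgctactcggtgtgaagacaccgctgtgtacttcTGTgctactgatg
Trav9-1: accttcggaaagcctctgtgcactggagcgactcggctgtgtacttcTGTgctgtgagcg
Trav12-1: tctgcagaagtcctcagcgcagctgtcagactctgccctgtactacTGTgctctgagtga
Trav12d-1: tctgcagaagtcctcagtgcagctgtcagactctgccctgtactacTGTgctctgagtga

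Of the 25 Trbv members, 21 shared no 50-base stretch, the length of a read, with any other V segment on either locus. Trbv13-2 and Trbv13-3, which are 90.6% identical, shared 0.344% of such stretches. Among the 121 Trav members only 10 shared no 50-base stretch, 70 shared more than 50% of their stretches and 37 shared all of them. There were 16 pairs of Trav members with identical transcripts, and within these pairs the counts differed by at most 5 in any library. Here and below, values stand in the order of WT replicates 1, 2 and 3, followed by KO replicates 1, 2 and 3. Trav14d-1 had 556, 610 and 709 counts in WT and 615, 708 and 818 in KO, and Trav14n-1 had 555, 610 and 714 and then 613, 705 and 816. A read that fits identical copies was thus counted at each of them, so the 121 Trav members hold 105 distinct sequences and a Trav share is read here together with those of its copies.

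The libraries held 33784183 to 41231173 counts, and 16934 to 22132 of these fell on Trbv and 21984 to 28452 on Trav segments. Junb, the targeted gene, had 87.1, 77.5 and 89.5 CPM (counts scaled to the size of the library, with TMM factors) in WT and 57.1, 57.3 and 49.6 CPM in KO, without overlap but not called by edgeR (unadjusted p = 0.00163, adjusted p = 0.9999). Marker genes of Tregs (6 of 6) had lower means in KO, with a summed level of 1487 to 1740 CPM in WT and 682 to 1559 CPM in KO, the lowest in KO replicate 1. Conventional CD4 T cell markers (7 of 8) had higher means in KO, at 1317 to 1745 CPM in WT and 1464 to 2110 CPM in KO, the highest in KO replicate 1. B cell markers (7 of 8 higher in KO) summed to 3089 to 15678 CPM in WT and 4792 to 13168 CPM in KO, with the highest level in WT replicate 2, and myeloid markers (7 of 8 higher in KO) to 335 to 1201 and 701 to 1282 CPM. No gene of these lists was at 0 in all libraries, and edgeR called none of them. Conventional CD4 T cells use the same V segments as Tregs, and the part of such cells in the values below was not tested.

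Trbv13-2 was the most used beta segment in every library. It took 11.4%, 13.3% and 11.3% of all Trbv counts in WT and 13.2%, 11.5% and 11.9% in KO. Trbv13-2 encodes the beta chain found on many receptors of C57BL/6 T cells, among them those of invariant natural killer T (iNKT) cells. Since a longer segment collects more reads, the order of segments was read from shares per exon length, given as mean ± SD over the 6 libraries. On this scale Trbv13-2 stood at 13.9% ± 1.0 (SD, n = 6), well above Trbv5 at 8.15% ± 0.628 (SD, n = 6), and the lowest Trbv13-2 library (13.0%) lay above the highest Trbv5 library (8.89%). After Trbv5 came Trbv3 at 7.37% ± 0.545, Trbv13-3 at 7.30% ± 1.34, Trbv16 at 7.15% ± 1.28 and Trbv1 at 6.21% ± 0.996 (SD, n = 6 each). Neighbours in this order from Trbv5 to Trbv1 had overlapping ranges, so their order is not settled. The length adjustment moved few segments, with a Spearman rho of 0.984 between the scales across the 25 Trbv members, which are not independent.

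**Figure D1:**
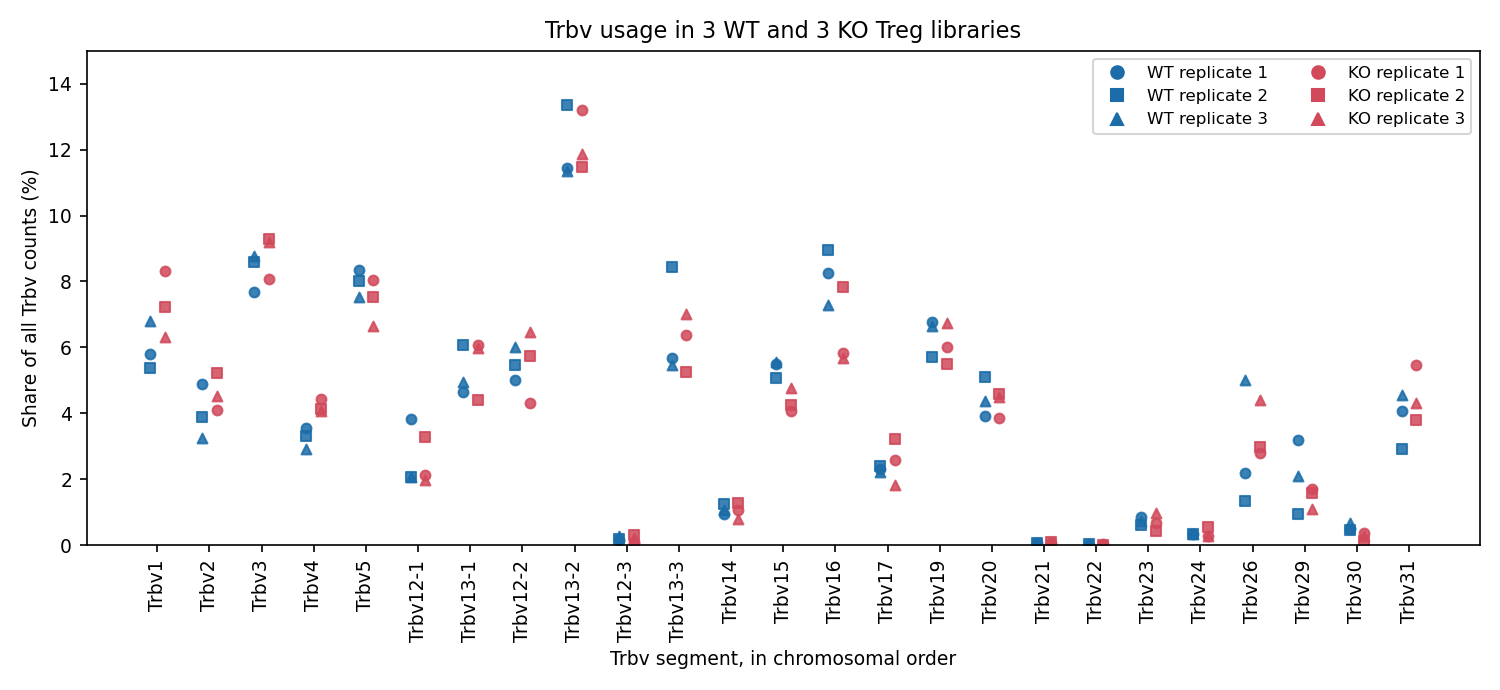
Share of all Trbv counts (%, y axis) of the 25 Trbv members in chromosomal order (x axis), with 1 point per library, WT in blue and KO in red. Trbv13-2 lies at 11.3% to 13.3% in all 6 libraries, Trbv26 and Trbv29 spread widely within a genotype, and Trbv4, Trbv15 and Trbv30 are the 3 segments whose WT and KO points do not overlap.

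Beta usage fell unevenly on a small set of 25 members. The 3 Trbv segments with the highest mean shares held 28.4% of Trbv counts, the 6 highest held 48.7%, and 7 were needed to reach 50%. The effective number of Trbv segments, the exponential of the Shannon entropy of the shares (the number of equally used segments that would be as even), was 18.1, 16.8 and 18.1 in WT and 17.5, 17.9 and 17.5 in KO. At the low end lay Trbv21 and the 3 pseudogenes that passed the limit, Trbv24 with 407 counts over all libraries, Trbv12-3 with 250 and Trbv22 with 26. Trbv21, annotated as functional type, had 66 counts in all and 0 in KO replicate 3, where a count of 0 allows a share of up to 0.0137%. Such intervals and limits cover counting error only, and the labels name no molecular identifiers.

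The 2 ends of the beta locus were used as well. Trbv1, the first segment of the locus, took 5.81%, 5.38% and 6.80% of Trbv counts in WT and 8.32%, 7.22% and 6.32% in KO, and the ranges overlapped. Trbv31 lies on the minus strand beyond the constant region genes and joins by inversion. It took 4.07%, 2.93% and 4.55% in WT and 5.47%, 3.78% and 4.33% in KO, again with overlap. Trbv19, a segment of the middle of the locus, took 6.77%, 5.71% and 6.65% in WT and 6.01%, 5.50% and 6.75% in KO.

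Libraries of the same genotype differed in Trbv usage by more than counting error. The chi-square per degree of freedom within genotypes, which is about 1 when libraries differ by sampling noise alone, was above 1 for all 25 Trbv members with a median of 13.0. Trbv26 spread most, at 149. Its share was 2.18%, 1.35% and 5.0% in WT and 2.79%, 2.98% and 4.39% in KO, highest in WT replicate 3 and KO replicate 3. The 95% Wilson intervals of WT replicate 2 (1.19% to 1.53%) and WT replicate 3 (4.72% to 5.30%) lay far apart. Trbv29, another segment used by iNKT receptors, had 3.18%, 0.956% and 2.11% in WT and 1.70%, 1.57% and 1.09% in KO, a chi-square per degree of freedom of 62.2. Trbv12-1 had 3.82%, 2.06% and 2.08% in WT and 2.13%, 3.28% and 1.99% in KO, high in WT replicate 1 and KO replicate 2.

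The 3 segments of the Trbv13 subgroup, which lie near each other and resemble each other in sequence, were high in the same libraries. Trbv13-3 had 5.68%, 8.43% and 5.46% in WT and 6.38%, 5.26% and 7.02% in KO, and Trbv13-1 had 4.64%, 6.07% and 4.94% in WT and 6.08%, 4.41% and 6.00% in KO. For each of the 3 segments the highest 3 libraries were WT replicate 2, KO replicate 1 and KO replicate 3. Summed, the subgroup took 21.8%, 27.8% and 21.7% of Trbv counts in WT and 25.7%, 21.1% and 24.9% in KO. The lowest and highest summed shares thus came from KO replicate 2 and WT replicate 2, and the genotypes overlapped.

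Counted by segment, with copies included, alpha usage was spread over many segments. The largest mean share of a Trav segment was 2.70%, the 6 highest held 14.8% of Trav counts and 28 segments were needed to reach 50%. The effective number of Trav segments was 87.8, 87.8 and 83.2 in WT and 86.7, 85.3 and 86.2 in KO. Summed into the 23 Trav subgroups, which puts most near-identical copies together, the effective number was 11.9, 11.3 and 10.8 in WT and 11.5, 11.2 and 11.3 in KO. A read counted at several copies enters such a sum more than once, which raises subgroups with many copies. The effective number of Trbv subgroups was higher in every library, at 13.6, 11.9 and 13.7 in WT and 12.8, 13.5 and 12.7 in KO. The wider spread of Trav was thus seen over segments, and not over subgroups summed in this way. How far the repeated counting of reads lowers the Trav value was not tested. The Trav14 subgroup, with 9 members, had the largest summed share, at 14.5%, 17.3% and 19.6% of Trav counts in WT and 18.4%, 20.6% and 18.5% in KO. Trav7 followed with 12.4%, 13.7% and 16.9% in WT and 14.2%, 13.8% and 13.0% in KO, and then Trav12 with mean shares of 12.01% ± 1.45 in WT and 10.9% ± 0.802 in KO (SD, n = 3 each). Trav9 stood at 10.9% ± 0.349 in WT and 11.4% ± 0.502 in KO, and Trav6 at 9.13% ± 1.51 in WT and 9.50% ± 1.07 in KO (SD, n = 3 each). None of the Trav subgroups separated the genotypes.

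The single Trav segments with the highest shares were mostly Trav14 and Trav7 copies. Trav14d-1 took 2.17%, 2.62% and 2.82% of Trav counts in WT and 2.80%, 2.91% and 2.88% in KO, and its identical copy Trav14n-1 takes the same reads. Per exon length this pair stood highest among Trav segments, at 2.52% ± 0.266 (SD, n = 6) for each copy, and the ranges over libraries of the segments that followed, Trav14-3 at 2.23% ± 0.305 and Trav7-4 at 2.21% ± 0.336 (SD, n = 6), overlapped it. In shares of counts, Trav7-4 had 2.57%, 2.61% and 3.09% in WT and 1.997%, 2.83% and 2.33% in KO, and its copy Trav7d-4, 99.6% identical, had 2.22%, 2.32% and 2.74% in WT and 1.79%, 2.64% and 1.98% in KO. Both copies were lowest in KO replicate 1. Trav14d-3-dv8, which the delta chain can also use, had 1.92%, 2.03% and 2.97% in WT and 2.29%, 2.81% and 2.16% in KO, and Trav14-3 had 1.84%, 1.96% and 2.68% in WT and 2.22%, 2.34% and 2.22% in KO.

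**Figure D2:**
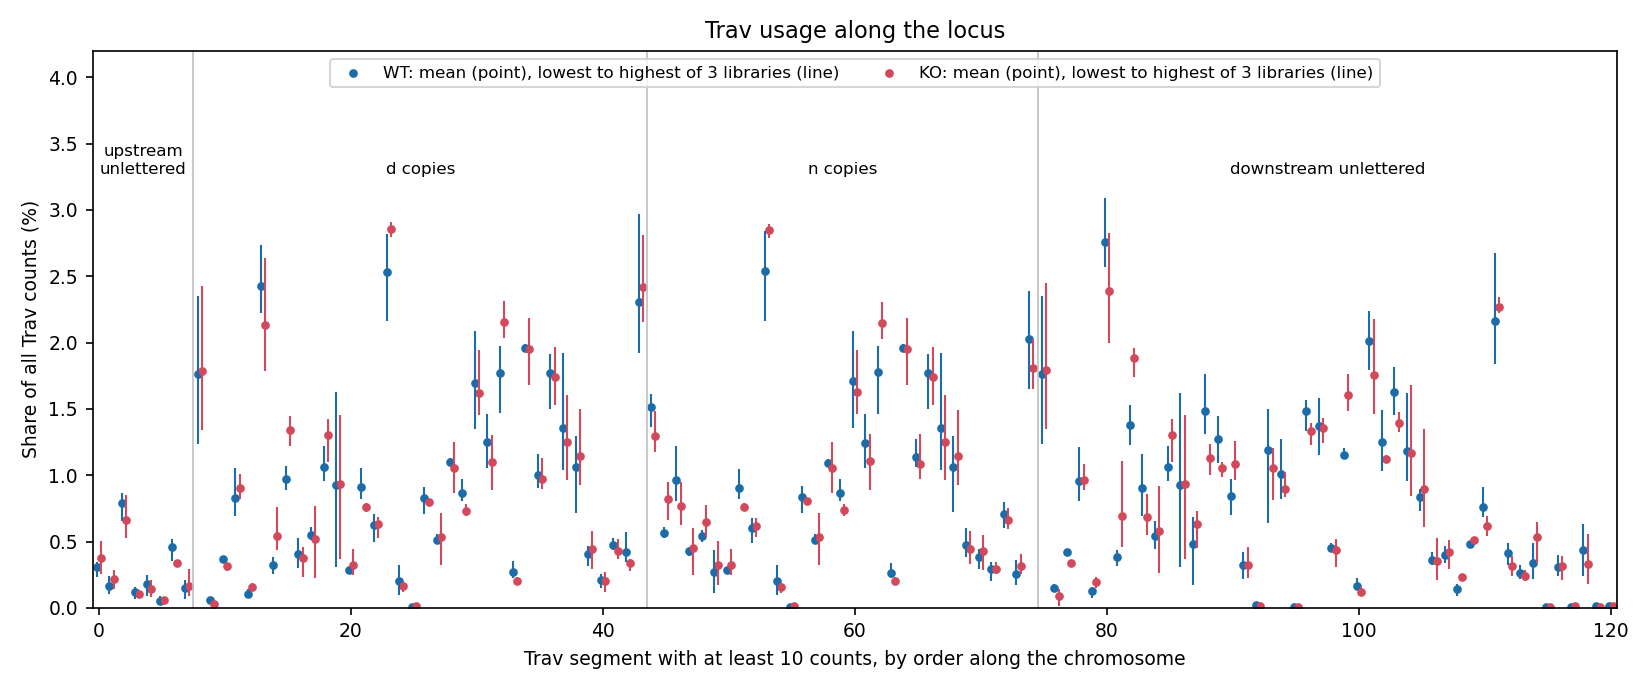
Share of all Trav counts (%, y axis) of the 121 Trav members in their order along the chromosome (x axis), with the mean (point) and the lowest to highest of 3 libraries (line) for WT in blue and KO in red. The pattern of high and low segments in the d copies recurs in the n copies, where identical copies are counted from the same reads. No segment has a mean share above 2.70% over the 6 libraries.

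Counts fell on all parts of the Trav locus. The 39 annotated d copies took 33.0% to 34.8% of Trav counts over the 6 libraries, the 34 n copies 27.8% to 28.8%, the 8 unlettered segments upstream of them 1.98% to 2.38% and the 47 unlettered segments downstream 34.5% to 36.3%. The parts played by d and n copies are not independent, because identical copies are counted from the same reads. Use of a d copy and use of its identical n copy cannot be told apart here. Trav1, at the upstream end and the V segment of mucosal-associated invariant T cell receptors, had 0.339%, 0.347% and 0.231% in WT and 0.505%, 0.259% and 0.366% in KO. Near the downstream end, Trav21-dv12 had 0.432%, 0.240% and 0.629% in WT and 0.559%, 0.177% and 0.260% in KO. Neither shared a 50-base stretch with another segment. The 10 annotated segments with -dv in their symbols took 6.90%, 7.34% and 7.95% in WT and 6.89%, 6.80% and 6.99% in KO.

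Trav usage also varied between libraries of the same genotype. The chi-square per degree of freedom within genotypes was above 1 for 115 of the 121 Trav members, with a median of 5.86, and lowest for Trav16 at 0.286. Among the 41 Trav segments with a mean share of 1% or more the ratio of the highest to the lowest library had a median of 1.53, next to 1.55 among the 19 such Trbv segments. The largest such ratio in Trav was 2.36, in Trav9-2, which had 1.5%, 1.44% and 0.637% in WT and 0.814%, 1.20% and 1.16% in KO. Trav6d-7 and its identical copy Trav6n-7 were next, with 1.297%, 1.17% and 0.716% for Trav6d-7 in WT and 0.923%, 1.02% and 1.497% in KO. Trav5n-4 had 1.92%, 1.04% and 1.102% in WT and 0.964%, 1.17% and 1.60% in KO, high in WT replicate 1 and KO replicate 3. The genotypes overlapped in each of these segments.

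Trav11 and its identical copy Trav11d had the highest chi-square within genotypes of all Trav segments. Trav11 joined to Traj18 makes the invariant alpha chain of iNKT cells, which recognise lipids on CD1d. Trav11 (chromosome 14, 53519303 to 53519859) and Trav11d are identical over the 342 bases compared, while Trav11n (53135122 to 53135678) is annotated as a pseudogene and is 97.7% identical to Trav11. The first 300 bases of both transcripts are given here, because they hold all 8 differences by which reads of Trav11 and Trav11n can be told apart. Capitals mark the bases of Trav11n that differ from Trav11.
Trav11: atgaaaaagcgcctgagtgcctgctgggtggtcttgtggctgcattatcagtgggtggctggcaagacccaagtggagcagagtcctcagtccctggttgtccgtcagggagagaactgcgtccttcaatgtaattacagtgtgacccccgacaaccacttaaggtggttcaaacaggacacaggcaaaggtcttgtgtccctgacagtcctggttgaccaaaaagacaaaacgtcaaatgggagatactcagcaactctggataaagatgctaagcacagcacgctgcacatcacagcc
Trav11n: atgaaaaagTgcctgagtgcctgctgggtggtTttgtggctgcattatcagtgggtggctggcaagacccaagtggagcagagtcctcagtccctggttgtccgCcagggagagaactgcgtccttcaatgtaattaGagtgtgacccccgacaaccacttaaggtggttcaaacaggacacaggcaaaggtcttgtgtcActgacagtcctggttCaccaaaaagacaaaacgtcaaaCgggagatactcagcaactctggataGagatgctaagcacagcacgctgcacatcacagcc
Counted from 1 at the 5′ end of the transcript, with the base of Trav11 given first, the differences are C10T, C33T, T105C, C138G, C201A, G217C, T240C and A266G. C138G turns the codon TAC into the stop codon TAG at position 136, and no in-frame stop was found in Trav11 or Trav11d. Of the 50-base stretches of Trav11, 21.4% occur also in Trav11n.

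Trav11 took 1.62%, 0.849% and 0.306% of Trav counts in WT and 1.45%, 0.985% and 0.366% in KO, a ratio of 5.28 between the highest and the lowest library and a chi-square per degree of freedom of 101 within genotypes. Trav11n followed at a lower level, with 0.436%, 0.266% and 0.111% in WT and 0.500%, 0.304% and 0.172% in KO. Both were lowest in WT replicate 3 and KO replicate 3 within their genotypes, and the genotypes overlapped. In edgeR, Trav11 had a log2 difference (KO minus WT) of -0.12 with a standard error (SE) of 0.70 and an adjusted p of 0.9999, and the sign turned without WT replicate 1 (0.65) and without KO replicate 3 (0.22).

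Other genes tied to iNKT or gamma delta T cells were set beside Trav11. Zbtb16, the transcription factor of iNKT and other innate-like T cells, had 2.17, 0.263 and 0.0248 CPM in WT and 0.874, 0.200 and 0.620 CPM in KO. These levels rest on few counts, 75, 9 and 1 in WT and 33, 7 and 23 in KO. Zbtb16 was highest in WT replicate 1 and lowest in WT replicate 3, as Trav11 was, while KO replicate 3 had more Zbtb16 than KO replicate 2. The other 3 genes of the list fixed for iNKT cells had other orders over the 6 libraries. Klrb1c, a receptor of NK and NKT cells, had 7.14, 9.05 and 7.16 CPM in WT and 9.33, 7.83 and 10.9 CPM in KO. Cd1d1 had 52.4, 53.2 and 33.6 CPM in WT and 44.7, 58.9 and 66.8 CPM in KO. It encodes CD1d, the molecule that iNKT cells recognise, and is not a marker of these cells themselves. Klrb1c and Cd1d1 were highest in KO replicate 3, where Trav11 was lowest among the KO libraries. Slamf6, a surface receptor that other T cells also carry, had 183, 149 and 144 CPM in WT and 143, 162 and 162 CPM in KO, with the order of Trav11 among the WT libraries and the lowest level in KO replicate 1. Traj18 had 12.1, 10.05 and 12.1 CPM in WT and 10.7, 8.05 and 10.2 CPM in KO and was as high in WT replicate 3 as in WT replicate 1. Tcrg-C1, a constant gene of the gamma chain, was at 8.62, 9.14 and 0.818 CPM in WT and 6.28, 8.05 and 6.52 CPM in KO. The summed level of the 4 genes of that list was 185 to 245 CPM in WT and 198 to 241 CPM in KO. Slamf6 and Cd1d1 made up most of this sum and Zbtb16 at most 2.17 CPM of it. The part of iNKT cells in the Trav11 values was not tested.

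**Figure D3:**
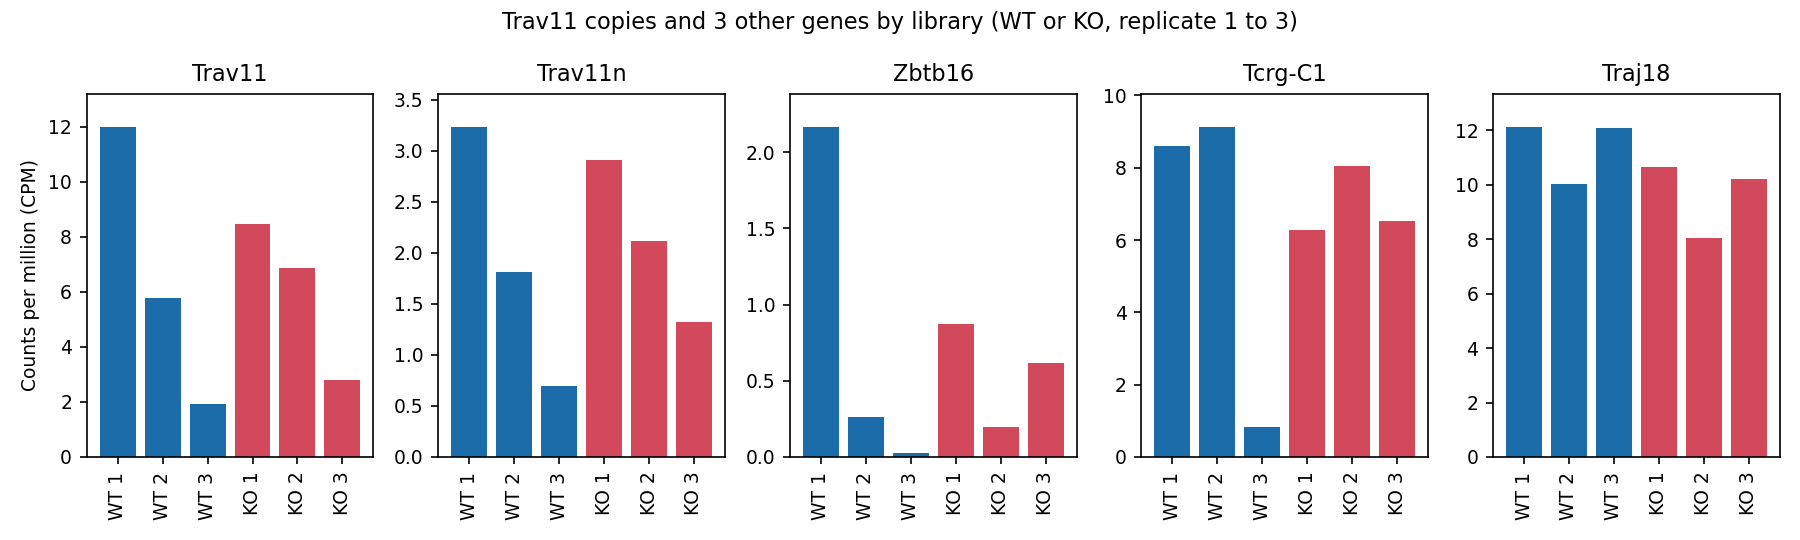
Level in CPM (y axis, a separate linear scale in each panel) of Trav11, Trav11n, Zbtb16, Tcrg-C1 and Traj18 in each library (x axis, 1 bar per library, WT in blue, KO in red). Trav11 is lowest in WT replicate 3 (1.91 CPM) and highest in WT replicate 1 (11.999 CPM), Trav11n has the same order of libraries, and Traj18 stays between 8.05 and 12.1 CPM.

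No V segment was called different between KO and WT Tregs. Of the 146 members, 137 passed the filter on low counts and were tested in the edgeR fit over 20475 genes. None had an adjusted p under 0.05, where 0% of all genes were called (0 of 20475), and none had an unadjusted p under 0.05, where 2.88% of all genes did. DESeq2 called 0 members and 0.272% of all genes (63 of 23198), and limma-voom called 0 members and 0% of all genes. At an unadjusted p under 0.05, DESeq2 and limma-voom each gave 2 members, Trbv16 and Trbv30, beside 3.69% of the 32774 genes with a p in DESeq2 and 3.61% of the 20475 genes in limma-voom. The log2 difference was below 0, lower in KO, for 79 of the 137 tested members beside 49.1% of all genes, with a median of -0.04 for the members and 0.01 for all genes tested. By locus it was below 0 for 62 of 113 Trav and 17 of 24 Trbv segments, with medians of -0.04 and -0.11.

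The total receptor V RNA overlapped between the genotypes. Summed over all Trav segments the level was 742, 681 and 623 CPM in WT and 583, 696 and 767 CPM in KO, with means of 682 ± 59.8 and 682 ± 92.9 (SD, n = 3 each). Summed over all Trbv segments it was 607, 510 and 548 CPM in WT and 449, 509 and 591 CPM in KO, with means of 555 ± 48.7 and 516 ± 71.6 (SD, n = 3 each). KO replicate 1 had the lowest level at both loci. In bulk RNA, fewer cells that use a segment and less RNA per such cell cannot be told apart. The shares used here are taken within a locus and do not depend on this total.

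Libraries of a genotype were as far from each other in V usage as from the other genotype. The distance between 2 libraries was taken as the percentage of counts that would have to move between segments to make their shares equal. For Trav it averaged 11.7% between WT libraries, 11.3% between KO libraries and 11.4% between genotypes. For Trbv it averaged 9.29%, 8.91% and 9.18%. The tables' names carry a number of unstated meaning, which divides the libraries into a set of WT replicates 1 and 2 with KO replicate 2 and a set of WT replicate 3 with KO replicates 1 and 3. Distances averaged 11.3% for Trav and 8.85% for Trbv within such a set, and 11.6% and 9.35% across the sets.

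Segments whose genotypes did not overlap made up a share near that of all genes on the matched scale. The 3 KO shares lay all above or all below the 3 WT shares for 20 of the 146 members (13.7%), and for 19 of the 137 tested members (13.9%). On the CPM scale, on which all genes can be compared, this held for 12 of the 137 (8.76%) beside 7.76% of all genes tested, with 6 members higher in KO (3.68% of all genes) and 6 lower (4.07% of all genes). Copies that share reads enter the members' count more than once. The 17 Trav segments among the 20 hold 14 distinct sequences, and after summing into subgroups 3 of 44 remained without overlap (6.82%), all of them single Trbv segments. For such a segment an exact two-sided permutation test over the 6 libraries gives p = 0.1, the smallest p that 3 against 3 libraries allow. With any 1 library left out the groups are smaller, and 31 to 42 segments did not overlap, with 31 when WT replicate 1, WT replicate 2 or KO replicate 3 was absent, 35 when KO replicate 1, 37 when WT replicate 3 and 42 when KO replicate 2 was.

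**Figure D4:**
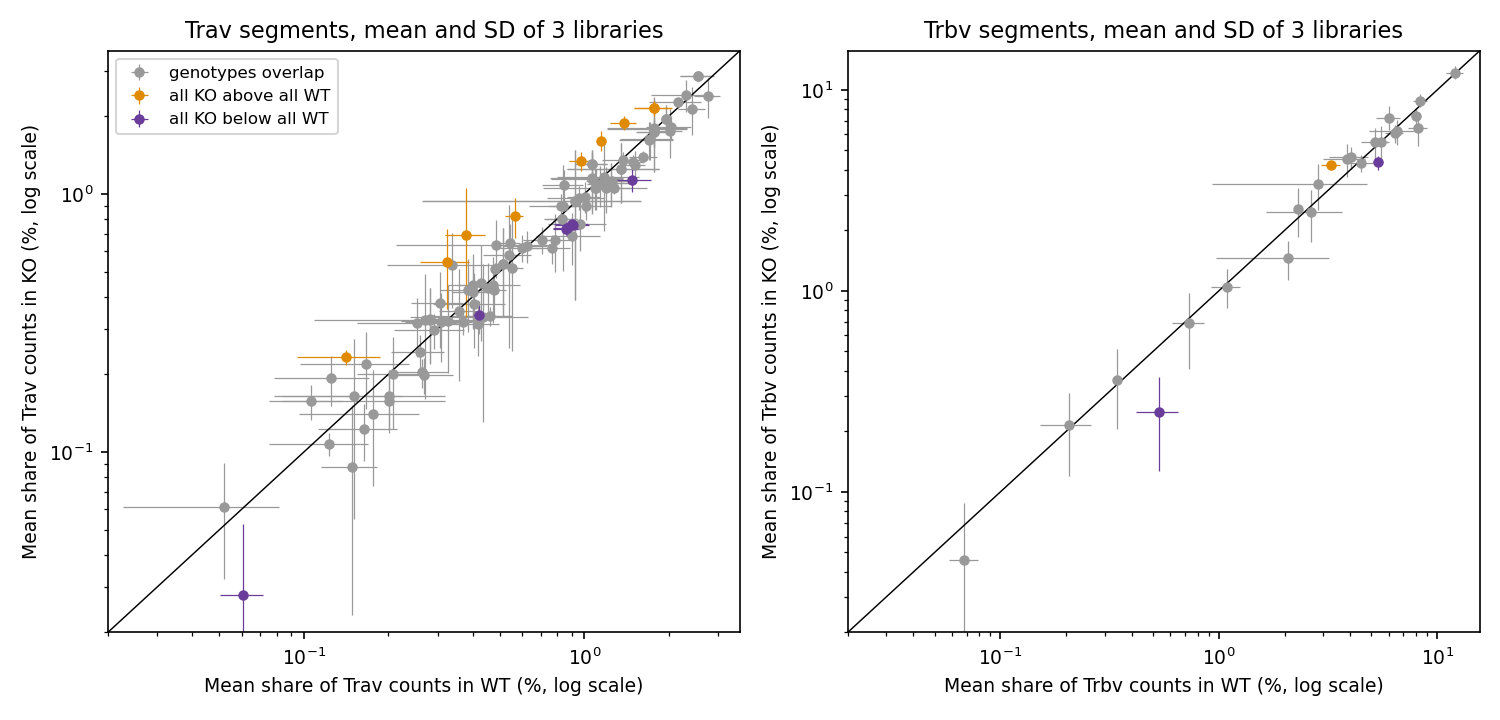
Mean share in KO (y axis) against mean share in WT (x axis), in % of Trav counts (left) and Trbv counts (right) on log scales, for the 113 Trav and 24 Trbv members tested, with bars of 1 SD over 3 libraries (bars that would reach below 0 are shortened) and a line of equal shares. Orange points (all KO above all WT) and purple points (all KO below all WT) mostly lie near the line, as the grey points with overlapping genotypes do, and Trbv30 lies below it at 0.534% in WT and 0.250% in KO.

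Among beta segments Trbv4 had higher and Trbv15 and Trbv30 lower shares in all KO libraries. These segments were picked from this same comparison, so their values are a description. Trbv4 had 3.56%, 3.30% and 2.91% of Trbv counts in WT and 4.44%, 4.13% and 4.06% in KO. In edgeR its log2 difference was 0.26 (SE 0.20, unadjusted p = 0.249). Trbv15 had 5.50%, 5.06% and 5.55% in WT and 4.07%, 4.25% and 4.76% in KO. Its edgeR log2 difference was -0.40 (SE 0.22, unadjusted p = 0.111). Trbv30, a rarely used segment and the last member on the plus strand, had 0.481%, 0.452% and 0.669% in WT and 0.360%, 0.118% and 0.273% in KO, from 101, 79 and 148 counts in WT and 61, 21 and 60 in KO. It had the largest log2 difference of all tested members in edgeR, -1.21 (SE 0.55, unadjusted p = 0.062). All 3 had an adjusted p of 0.9999. In CPM, the scale of the edgeR fit, Trbv30 was also lower in all KO libraries, while Trbv4 and Trbv15 overlapped between the genotypes. Within the sets given by the tables' names, KO minus WT was 0.699 and 1.34 percentage points for Trbv4, -1.03 and -1.14 for Trbv15 and -0.349 and -0.352 for Trbv30. The signs in both sets were fixed in advance, because the segments were picked for shares without overlap. KO replicate 2 is the only KO library of the first set, and WT replicate 3 the only WT library of the second.

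Trbv16 had the smallest p of all members, without separating the genotypes in shares. Its product is bound by superantigens of endogenous retroviruses in strains that express the class II molecule I-E, which C57BL/6 mice lack. It took 8.25%, 8.96% and 7.27% of Trbv counts in WT and 5.83%, 7.82% and 5.67% in KO, where KO replicate 2 lay above WT replicate 3. In edgeR the log2 difference was -0.45 (SE 0.20, unadjusted p = 0.0565, adjusted p = 0.9999). Trbv5 and Trbv3, the other highly used segments, overlapped in shares. Trbv5 had 8.36%, 8.02% and 7.53% in WT and 8.05%, 7.54% and 6.66% in KO. Trbv3 had 7.68%, 8.60% and 8.77% in WT and 8.07%, 9.27% and 9.19% in KO. In CPM, 3 of the 24 tested Trbv segments (Trbv5, Trbv16 and Trbv30) were lower in all KO libraries, beside 4.07% of all genes tested. On the same scale 0 were higher, beside 3.68% of all genes tested. The summed Trbv level in CPM also had a lower mean in KO, 516 against 555 in WT, with overlap.

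Among the 121 alpha segments 10 had higher and 7 lower shares in all KO libraries, and these 17 hold 14 distinct sequences. On the CPM scale 6 of the 113 tested were higher and 3 lower, beside 3.68% and 4.07% of all genes tested. Of the 17, those named by the smallest edgeR p were, on the higher side, Trav8-1, Trav9-1, Trav14-2 and Trav8d-1. Trav8-1 had 0.3155%, 0.437% and 0.386% of Trav counts in WT and 1.11%, 0.456% and 0.517% in KO, so that KO replicate 1, the library with the lowest Treg marker level, alone stood far above the rest. Its edgeR log2 difference was 0.82 (SE 0.41, unadjusted p = 0.084, adjusted p = 0.9999), and 0.46 without KO replicate 1. Trav8d-1, which shares 55.6% of the 50-base stretches of Trav8-1, had 0.257%, 0.386% and 0.326% in WT and 0.760%, 0.439% and 0.436% in KO. Trav9-1 had 1.23%, 1.53% and 1.38% in WT and 1.95%, 1.74% and 1.96% in KO, and Trav14-2 had 1.13%, 1.20% and 1.12% in WT and 1.49%, 1.76% and 1.57% in KO. Their edgeR log2 differences were 0.45 (SE 0.24, unadjusted p = 0.0983) and 0.49 (SE 0.26, unadjusted p = 0.103).

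On the lower side the named segments were Trav12-1, Trav12d-1, Trav12n-1 and Trav4d-2. Trav12-1 had 1.37%, 1.76% and 1.31% in WT and 1.0%, 1.23% and 1.17% in KO, with an edgeR log2 difference of -0.38 (SE 0.29, unadjusted p = 0.237). Trav12d-1 and Trav12n-1 are identical and hold the same reads, at 0.822%, 1.05% and 0.852% for Trav12d-1 in WT and 0.769%, 0.788% and 0.724% in KO. The pseudogene Trav4d-2 had 13, 14 and 18 counts in WT and 10, 0 and 11 in KO, and the 0 in KO replicate 2 allows a share of up to 0.0123%. The other segments without overlap, named after their values were seen, were copies of the same kinds for the most part: Trav9d-1, Trav14d-2, Trav14n-2, Trav9n-1, Trav8-2 and Trav5-2 were higher and Trav9d-3, Trav9n-3 and Trav6-3 lower in KO. Trav14d-2 and Trav14n-2 are identical and hold the same reads, as do Trav9d-3 and Trav9n-3. The pseudogene Trav5-2 rests on 10 counts over the 6 libraries.

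Pseudogenes took 2.002%, 2.04% and 1.63% of Trav counts in WT and 2.44%, 2.09% and 2.1897% in KO, higher in all KO libraries. Most of these counts fell on Trav9n-1, with 0.526%, 0.609% and 0.557% in WT and 0.660%, 0.850% and 0.949% in KO, on Trav13-3, Trav11n, Trav12-4 and Trav8-2. Trav9n-1 shares 51.4% and Trav13-3 85.02% of its 50-base stretches with other segments, so their counts can hold reads of functional copies. For Trbv the pseudogene share was 0.524%, 0.578% and 0.628% in WT and 0.437%, 0.858% and 0.510% in KO, with overlap.

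The genes that complete the receptor were set beside the V segments. All 7 constant region and CD3 genes had lower means in KO and edgeR called none (none also at an unadjusted p under 0.05). Trac, the alpha constant gene, had 1204, 1142 and 1218 CPM in WT and 984, 1085 and 1232 CPM in KO. Rag1 had 0 counts in all libraries and Rag2 had 9 counts in WT replicate 2 and 2 in KO replicate 2. Dntt, which adds bases at the V(D)J junctions during recombination, had 1.36, 0.496 and 2.13 CPM in WT and 7.15, 2.26 and 0.889 CPM in KO. Cd4 was at 392, 323 and 282 CPM in WT and 269, 358 and 257 CPM in KO. Cd8a was at 1.94, 11.3 and 1.71 CPM in WT and 2.23, 2.31 and 4.31 CPM in KO, highest in WT replicate 2. The 5 constant genes of the gamma and delta chains summed to 11.2 to 43.9 CPM in WT and 31.5 to 42.4 CPM in KO.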

How the data were processed

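RNA of 6 libraries of sorted Tregs was sequenced as single reads of 50 bases, from cDNA made with a SMARTer low-input kit and a NEBNext kit per the labels. The authors deposited a table of raw counts per gene for each library, made with bcl2fastq 2.19.0.316, STAR 2.3 and featureCounts on mm10 per the submitters' processing notes. The sources used here do not state how reads with several locations, or their strand, were handled. Of 53379 genes in each table, 53274 were matched to GENCODE M21. Each V segment's share is its count divided by all Trav or all Trbv counts of the library. Library totals were 33784183 to 41231173 counts. Differences of KO minus WT came from edgeR 4.0.16 in R 4.3.3 (filterByExpr, TMM, robust quasi-likelihood fit, genotype as the only term, two-sided F test, Benjamini-Hochberg adjustment over 20475 genes, threshold 0.05), and DESeq2 1.42.0 and limma 3.58.1 (voom) were alternatives. Single shares were compared with an exact permutation test (SciPy 1.17.1). V segments, gene lists and tests were chosen with earlier results of these data known. Segments were named by rule: in each locus the 6 of highest mean share, up to 4 per direction of smallest edgeR p among those without overlap, the 4 of largest ratio of highest to lowest share with a mean share of at least 1%, and segments of invariant receptors or locus ends. Normalization, filters, tools, a term for the number in the tables' names, the replicate number as a block, copies pooled and each library left out were tried as alternatives.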

Additional observations from a re-analysis of the deposited data

How the results depend on the processing

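No V segment was called under any alternative run, replicate block included (0 genes of any kind and 0 V segments called). Over all genes, DESeq2 called 63 and all other fits called 0. The count of 20 segments without overlap came to 3 with shares summed over subgroups, 12 with CPM in place of shares, and 31 to 42 with each library left out, which leaves fewer libraries to overlap. Effective numbers, summed levels and distances moved by less than 1 SD between replicates under all alternatives. Of 480 alternative values for the log2 differences of 37 named segments, 448 kept their direction and 32 reversed, and 22 segments kept theirs throughout. With a term for the number in the tables' names, the log2 difference of Trbv31 became -0.016, that of Trav11 and Trav11d 0.58 each and that of Trav9-2 0.23. The replicate block gave 0.093 for Trav11 and 0.091 for Trav11d, and limma-voom gave 0.14 for both. With each library left out, log2 differences that reversed ranged from -0.15 to 0.13 for Trbv3, -0.49 to 0.21 for Trbv12-1, -0.37 to 0.0053 for Trbv13-3, -0.20 to 0.83 for Trbv26, -0.10 to 0.22 for Trbv31, -0.34 to 0.0033 for Trav7-4, -0.36 to 0.026 for Trav7d-4, -0.056 to 0.23 for Trav14d-3-dv8, -0.56 to 0.65 for Trav11, -0.57 to 0.65 for Trav11d, -0.26 to 0.76 for Trav11n, -0.24 to 0.36 for Trav6d-7, -0.24 to 0.35 for Trav6n-7, -0.45 to 0.32 for Trav5n-4 and -0.52 to 0.092 for Trav9-2. The cause was not tested.

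Libraries with the same replicate number gave no clear sign of deviating together. The correlations of their deviations from the group means were -0.095, 0.188 and 0.035 for numbers 1 to 3. Of the 3 numbers, 1 (number 2) correlated best with its own partner. With 3 libraries per genotype this check cannot exclude that the numbers pair the libraries. The spread between libraries, with a median SE of 0.35 on the log2 scale for tested members, limits the differences that could be called.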

Other observations

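The J segments that the V segments join were also counted. Each share is a percentage of all Traj or all Trbj counts of the library, without adjustment for length. Counts also fell on J segments annotated as pseudogenes, with 603 on Traj8 and 846 on Trbj2-6 over all libraries. Whether counts on a J segment follow how often it is joined was not tested. Among beta J segments Trbj2-7 had the highest share of counts in every library, with 17.7%, 15.3% and 14.5% in WT and 16.8%, 15.4% and 14.7% in KO. Trbj2-1 had 10.4%, 10.9% and 13.9% in WT and 10.8%, 9.68% and 11.3% in KO, and Trbj2-5 had 9.57%, 10.7% and 8.83% in WT and 11.1%, 11.1% and 9.29% in KO. Among alpha J segments Traj18 had the highest mean share, with 8.95%, 7.94% and 10.2% in WT and 9.75%, 7.10% and 7.13% in KO.

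Shares did not overlap between the genotypes for 8 of 60 Traj and 2 of 14 Trbj segments. On the CPM scale, on which all genes can be compared, this held for 2 of 51 Traj segments tested, 1 in each direction, and for 1 of 14 Trbj segments, beside 7.76% of all genes tested. In shares, Traj27 had 6.08%, 6.86% and 6.94% in WT and 8.95%, 7.56% and 7.58% in KO, and Traj23 had 3.62%, 3.19% and 3.21% in WT and 4.49%, 3.93% and 4.61% in KO. Traj33, the J segment of mucosal-associated invariant T cell receptors, was lower, at 3.20%, 2.86% and 2.64% in WT and 2.26%, 2.09% and 2.29% in KO. Traj27, Traj23 and Traj33 were named after their values were seen, and in CPM the genotypes overlapped for each of them. In edgeR none of the 51 Traj, 14 Trbj and 2 Trbd segments tested was called, and 0 had an unadjusted p under 0.05.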
